A study of Mus musculus with 16 samples.

Results

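The genes of Fcγ receptors and of the signaling next to them were followed in LPS/IC-activated macrophages treated with a γ-secretase inhibitor (GSI) or with its vehicle. The genes were those with the symbols Fcgr1, Fcgr2b, Fcgr3, Fcgr4, Fcer1g, Syk, Lyn, Inpp5d and Plcg2, 9 of the 47069 genes in the count table, chosen because ICs were part of the stimulus. With GSI, the mRNAs of the 3 activating receptors fell, those of Fcgr1 by 26.4%, of Fcgr3 by 29.0% and of Fcgr4 by 38.7%, Plcg2 fell by 27.5%, Inpp5d fell by 31.7% and Lyn fell by 32.6%. No change was called for the inhibitory receptor Fcgr2b, the shared signaling chain Fcer1g or the kinase Syk. All values are mRNA levels, and surface receptor was not measured here.

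Bone marrow-derived macrophages (BMMs) came from C57BL/6 mice aged 8 to 10 weeks and were grown in medium with L929-conditioned supernatant and horse serum. All cells of both groups were primed overnight with IFNγ (10 ng/mL) and then received Salmonella LPS (100 ng/mL) and ICs made of ovalbumin and rabbit anti-ovalbumin IgG. RNA was taken 1 hr after activation from cells in 25 μM DAPT, the GSI, or in 0.01% DMSO, its vehicle. The methods of the study place both overnight before activation, whereas some legends give a shorter time. Differences already present before LPS and ICs were added can therefore not be told apart from later ones. The amount of DMSO in the GSI cells is not given in the sources used here. Each group held 2 replicates with 4 count columns each, which were summed to 4 libraries. The labels do not say what the 4 columns are; they were taken as runs of 1 library and agreed within about the sampling noise, and n = 2 and all p-values rest on that reading. The sources do not say whether the replicates were separate mice or cultures, so the p-values measure only the spread between these libraries, which may be technical, and cells without ICs, LPS or IFNγ were not analysed here.

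IgG in ICs is bound by Fcγ receptors on the macrophage surface. In the mouse, FcγRI (Fcgr1), FcγRIII (Fcgr3) and FcγRIV (Fcgr4) are activating: they lack a signaling motif of their own and pair with the FcRγ chain (Fcer1g), whose immunoreceptor tyrosine-based activation motif (ITAM) is phosphorylated by Src family kinases such as Lyn and then recruits Syk. Syk leads to phospholipase Cγ2 (Plcg2), which splits a membrane phosphoinositide into the messengers that release calcium and activate protein kinase C. FcγRIIB (Fcgr2b) carries an inhibitory motif (ITIM) that recruits the lipid phosphatase SHIP-1 (Inpp5d), which removes the product of phosphoinositide 3-kinase.

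The coding sequence of the activation motif and that of the inhibitory motif are given 5′ to 3′ because they separate the activating side from the inhibitory side of the family, with the codons of their tyrosines in capitals. The first lies at chr1:171229889-171230072 of GRCm38 on the minus strand, split over 2 exons of Fcer1g, and codes for residues 65 to 79 of 86. The second lies at chr1:170961071-170961088 on the minus strand, in 1 exon of Fcgr2b, and codes for residues 317 to 322 of 340.
Fcer1g ITAM: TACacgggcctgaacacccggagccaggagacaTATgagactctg
Fcgr2b ITIM: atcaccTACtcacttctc

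The extracellular parts of Fcgr2b and Fcgr3 are close to identical, which bears on how their reads could be counted. The following coding stretches of 219 bases from each gene, at chr1:170966629-170968126 for Fcgr2b and chr1:171054122-171057837 for Fcgr3 (both GRCm38, minus strand, 2 exons each), differ at 6 bases, shown in capitals, and are identical over a run of 129 bases.
Fcgr2b: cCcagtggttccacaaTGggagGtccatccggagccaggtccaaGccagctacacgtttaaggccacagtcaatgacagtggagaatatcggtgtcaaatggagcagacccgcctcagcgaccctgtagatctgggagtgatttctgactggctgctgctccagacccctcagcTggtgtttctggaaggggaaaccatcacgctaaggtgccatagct
Fcgr3: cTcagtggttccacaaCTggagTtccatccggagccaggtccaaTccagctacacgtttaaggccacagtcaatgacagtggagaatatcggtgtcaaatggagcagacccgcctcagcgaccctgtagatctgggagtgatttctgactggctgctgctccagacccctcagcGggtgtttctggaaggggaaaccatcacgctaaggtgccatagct

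Over all annotated transcripts, 4.38% of the 50-base windows of Fcgr2b and 9.58% of those of Fcgr3 also occurred in another gene, mostly in each other. Lyn shared 13.4% of its windows with Gm11787, an unprocessed pseudogene that held 1 count in each library, and Inpp5d shared 0.546% of its windows. A read from such a window could not be assigned to 1 gene, and the sources used here do not say how such reads were treated, so Fcgr2b, Fcgr3 and Lyn are less certain than the others. Fcgr1, Fcgr4, Fcer1g, Syk and Plcg2 shared 0 windows of this size. No member shared exon bases with another gene on its own strand. On the other strand, Fcgr2b shared 155 exon bases with Gm38204, which held at most 1 count per library, and Lyn shared 248 with Gm26857, which held 64, 95, 31 and 31 counts (both DMSO libraries, then both GSI libraries).

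The libraries held 42694655 and 56932059 counts for DMSO and 48483661 and 49511733 for GSI, and the 9 genes were covered by between 908 counts (Fcgr2b) and 64095 counts (Fcgr4) per library, so none was near the limit of 3 counts that a count of 0 allows (0.0529 to 0.0697 CPM, for counting error only). CPM is the count of a gene divided by its TMM-adjusted library size (in units of 1000000 counts). The macrophage markers fixed for this comparison were abundant, with a summed level of 11730 and 11933 CPM in the DMSO libraries and 9114 and 9993 CPM in the GSI libraries. Of these 8 markers, 6 were lower and 1 (Mertk) higher at an FDR under 0.05, with Csf1r, the receptor for macrophage colony-stimulating factor, at a log2 fold change of -0.56 and Cd14, a co-receptor for LPS, at -0.64. Their part in the results on the 9 genes was not tested. The lists of other cell types summed to 0.697 to 1.43 CPM for 8 neutrophil markers, 0.344 to 0.538 CPM for 5 B cell markers, 0 to 0.0414 CPM for 6 T and NK cell markers, and 0.124 to 0.209 CPM for 4 fibroblast markers. The sum of 4 dendritic cell markers, mostly Xcr1, was 5.25 and 5.01 CPM with DMSO and 4.03 and 3.69 CPM with GSI, and Xcr1 was lower (log2 fold change -0.42, FDR = 0.0175 from edgeR's test). That of 6 mast cell and basophil markers, all of it Kit, was 0.488 and 0.617 CPM with DMSO and 1.12 and 0.871 CPM with GSI, and Kit was higher (0.83, FDR = 0.0233 from the same test). The part of these shifts in the results was not tested. Elane, Cd3g, Ncr1, Nkg7, Cpa3, Mcpt8, Mcpt4, Fcer1a, Ms4a2 and Siglech were at 0 counts in every library. In such bulk samples, fewer cells of a type and less RNA per cell cannot be told apart.

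All 9 genes passed the filter on low counts. The test of edgeR pools the spread between libraries over genes (prior degrees of freedom 17.8). Each standard error and p-value thus rests largely on the spread of other genes, not only on the gene's own libraries. In the quasi-likelihood test of edgeR, with p-values adjusted by Benjamini-Hochberg over 13211 genes (FDR), 6 of the 9 had an FDR under 0.05, all of them lower with GSI, against 40.8% of all tested genes in either direction, 21.9% lower and 19.0% higher. Of all called genes 53.6% were lower, against 46.4% with upper quartile normalization, 54.9% with RLE and 55.0% with no factors, and the 6 genes were called lower under each of these scalings. Among the 1945 tested genes averaging at least 100 CPM, a level that 8 of the 9 genes exceeded, 29.4% were lower and 23.2% higher. The median log2 fold change was -0.46 for the 9 genes and 0.01 for all tested genes. None of the 9 reached the study's second threshold, an absolute log2 fold change above 1.5, which 2.91% of all tested genes passed together with the FDR. The 2 groups did not overlap for 7 of the 9 genes, and likewise for 70.6% of all tested genes.

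**Figure D1:**
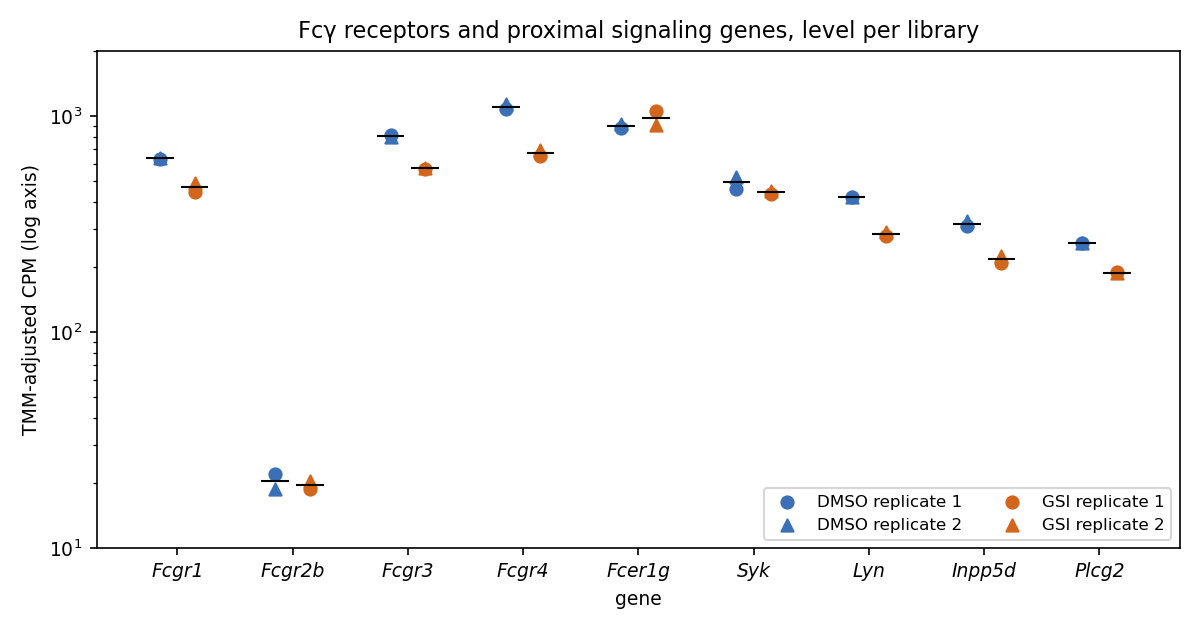
Level of each gene in each library in TMM-adjusted CPM on a log axis; blue marks are DMSO, orange marks GSI, circles replicate 1 and triangles replicate 2, and black bars are group means (n = 2). Fcgr2b, near 20.0 CPM, lies far under the other 8 genes, and the GSI marks of Fcgr1, Fcgr3, Fcgr4, Lyn, Inpp5d and Plcg2 lie under their DMSO marks.

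**Figure D2:**
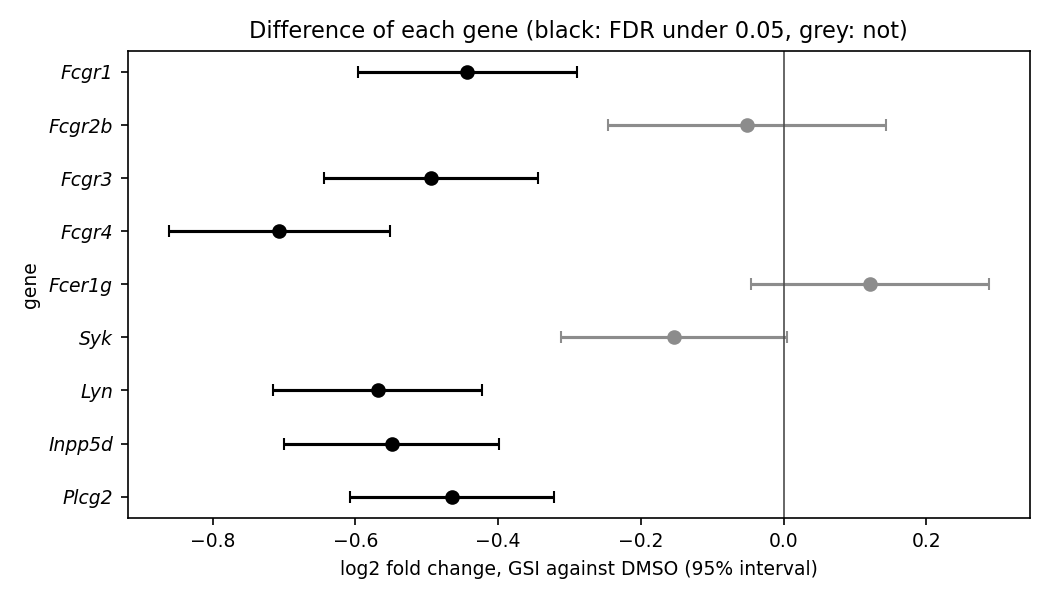
Log2 fold change of each gene, GSI against DMSO, with its 95% interval from edgeR's quasi-likelihood fit; black marks have an FDR under 0.05 and grey marks do not. Fcgr4 has the lowest value, -0.71, and the intervals of Fcgr2b, Fcer1g and Syk include 0.

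FcγRIV had the lowest fold change of the activating receptors. Fcgr4 (ENSMUSG00000059089) lies on chromosome 1 of GRCm38 from 171018920 to 171029761 and was measured at 1076 and 1130 CPM in the DMSO libraries and 654 and 697 CPM in the GSI libraries. The 2 groups did not overlap, and the lowest DMSO library lay above both GSI libraries by far more than the difference within a group. The log2 fold change was -0.71 (standard error 0.0743, 95% interval -0.86 to -0.55, FDR = 2.1e-07 from edgeR's quasi-likelihood test). The gene codes for a receptor that binds mouse IgG2a and IgG2b and is known for its induction by IFNγ.

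FcγRIII, the low-affinity activating receptor of most myeloid cells, also fell, with an interval that overlapped that of Fcgr4. Fcgr3 (ENSMUSG00000059498), on chromosome 1 from 171051174 to 171064935, was at 817 and 794 CPM with DMSO and at 568 and 576 CPM with GSI. The values within each group differed little and the groups did not overlap. Its log2 fold change was -0.49 (standard error 0.0718, 95% interval -0.64 to -0.34, FDR = 1.34e-05 from the same test). FcγRI, the high-affinity receptor, is encoded by Fcgr1 (ENSMUSG00000015947) on chromosome 3 from 96282909 to 96293969. Its level was 631 and 637 CPM with DMSO and 446 and 487 CPM with GSI, so that most of its spread lay between the GSI libraries. Its log2 fold change was -0.44 (standard error 0.0736, 95% interval -0.60 to -0.29, FDR = 6.52e-05 from the same test).

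For the inhibitory receptor no difference was detectable. Fcgr2b (ENSMUSG00000026656), on chromosome 1 from 170958617 to 170976547, had 22.1 and 18.6 CPM in the DMSO libraries (949 and 1057 counts) and 18.8 and 20.4 CPM in the GSI libraries (908 and 1006 counts). The DMSO values enclosed both GSI values. The edgeR fit gave a log2 fold change of -0.05 with a standard error of 0.0934 and FDR = 0.697, and its 95% interval, -0.25 to 0.14, did not include the estimates of the 3 activating receptors. The sign of this small value changed when DMSO replicate 1 or GSI replicate 1 was left out (0.070 and 0.0064). Fcgr2b, Fcgr4, Fcgr3 and Fcer1g follow each other in this order on chromosome 1, so that the genes that fell, Fcgr4 and Fcgr3, lie between those for which no change was called.

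The balance of activating to inhibitory receptor mRNA was compared within each library, where it does not depend on the scaling of the libraries. Levels of different genes were put on a common scale as CPM per kb of annotated exon. On that scale the sum of Fcgr1, Fcgr3 and Fcgr4 was 412 and 498 times the level of Fcgr2b with DMSO and 314 and 306 times with GSI. The groups did not overlap, and the mean ratio with GSI was 0.681 of that with DMSO (exact permutation test, two-sided, p = 0.33, the smallest that 2 libraries against 2 can give). It was 0.759 for Fcgr1 alone, 0.734 for Fcgr3 alone and 0.631 for Fcgr4 alone. Because Fcgr2b made up only 0.200% to 0.326% of the summed per-kb level of the 4 receptors, all of these ratios rest on its counts.

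The activating receptors were also compared as shares of the receptor mRNA. The summed per-kb level of the 4 receptors was 1575 and 1606 CPM per kb with DMSO and 1023 and 1079 CPM per kb with GSI. Fcgr4 held 54.4% and 56.0% of that sum with DMSO and 50.9% and 51.5% with GSI. Fcgr3 held 29.9% and 28.5% against 32.0% and 30.8%, and Fcgr1 held 15.5% and 15.3% against 16.8% and 17.5%. Because the shares are parts of the same sum, a lower share of Fcgr4 raises the others, so these are not separate results. Each share had no overlap between the groups, and in level the groups did not overlap for 70.6% of all tested genes.

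**Figure D3:**
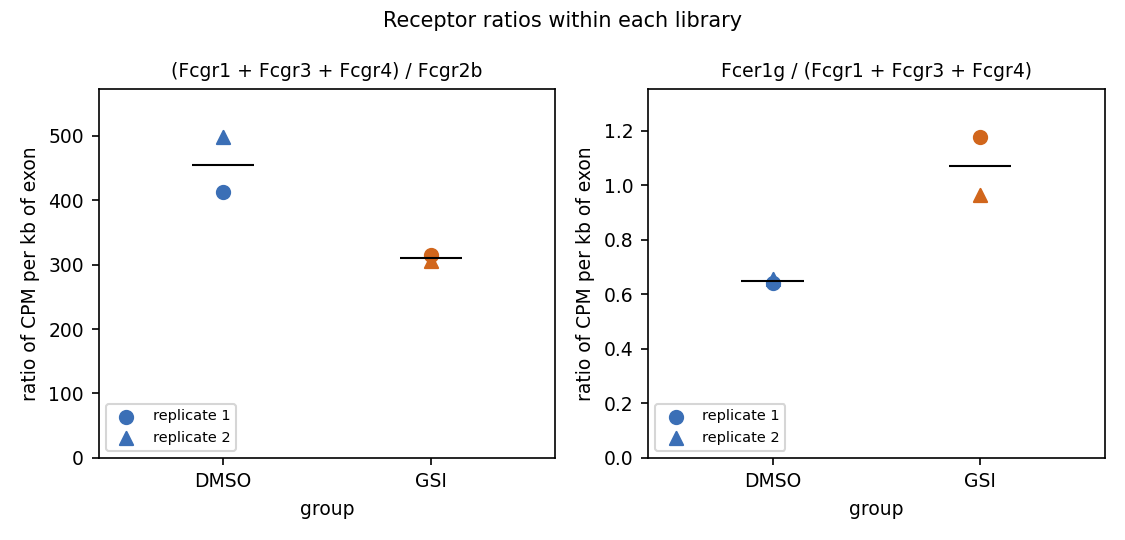
Ratios of summed CPM per kb of exon within each library (linear axes from 0); the left panel gives the activating receptors over Fcgr2b and the right panel Fcer1g over the activating receptors, with black bars at the group means (n = 2). The left ratio is lower in both GSI libraries (306 and 314) than in both DMSO libraries, and the right ratio is higher in both GSI libraries (0.965 and 1.18).

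The FcRγ chain, which the activating receptors need for signaling and, in the mouse, for stable surface expression, was not called lower. Fcer1g (ENSMUSG00000058715), on chromosome 1 from 171229572 to 171234365, was at 879 and 918 CPM with DMSO and at 1048 and 906 CPM with GSI. The second GSI library lay between the DMSO libraries and the first above both. The log2 fold change was 0.12 (standard error 0.0797, 95% interval -0.05 to 0.29, FDR = 0.238 from edgeR's quasi-likelihood test). Mast cells use the same chain in their IgE receptor. Of their markers only Kit was detected, higher with GSI as given above, and the other 5, Fcer1a and Ms4a2 among them, were at 0 in every library. That Fcer1g was not called depended on GSI replicate 2: without it the log2 fold change was 0.22 with an adjusted p of 0.0317 from the same test, and without GSI replicate 1 it was 0.013 (adjusted p from 0.00284 to 0.9998 over all 14 alternative fits, of which 2 called it higher). Set against the receptors it serves, Fcer1g was 0.640 and 0.655 times the summed per-kb level of Fcgr1, Fcgr3 and Fcgr4 with DMSO and 1.18 and 0.965 times with GSI. This ratio, chosen after the values were seen, was 1.65 times as high with GSI as with DMSO (exact permutation test, two-sided, p = 0.33, the smallest possible).

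Of the tyrosine kinases, Lyn fell and Syk was not called. Lyn (ENSMUSG00000042228), a Src family kinase that phosphorylates both ITAMs and ITIMs, lies on chromosome 4 from 3678115 to 3813122 and was at 423 and 420 CPM with DMSO and at 278 and 291 CPM with GSI. The DMSO libraries were nearly equal, and the groups did not overlap. The log2 fold change was -0.57 (standard error 0.0700, 95% interval -0.72 to -0.42, FDR = 1.67e-06 from edgeR's quasi-likelihood test). Syk (ENSMUSG00000021457), the kinase that binds phosphorylated ITAMs, lies on chromosome 13 from 52583173 to 52648792. Its level was 460 and 522 CPM with DMSO and 437 and 447 CPM with GSI, with no overlap but a wide spread of the DMSO libraries. Its log2 fold change was -0.15 (standard error 0.0759, 95% interval -0.31 to 0.0048, FDR = 0.112 from the same test), and the fits that each omitted 1 library gave values between -0.24 and -0.063.

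Downstream of both kinds of receptor, SHIP-1 and phospholipase Cγ2 were lower with GSI. Inpp5d (ENSMUSG00000026288), on chromosome 1 from 87620312 to 87720507, codes for SHIP-1, which opposes phosphoinositide 3-kinase. It was at 308 and 325 CPM with DMSO and at 208 and 225 CPM with GSI, with similar spreads in both groups and no overlap. Its log2 fold change was -0.55 (standard error 0.0722, 95% interval -0.70 to -0.40, FDR = 3.98e-06 from edgeR's quasi-likelihood test). Plcg2 (ENSMUSG00000034330), on chromosome 8 from 117498291 to 117635142, had the tightest replicates of the 9 genes, with 258.6 and 258.9 CPM in the DMSO libraries and 188 and 187 CPM in the GSI libraries. Its log2 fold change was -0.46 (standard error 0.0683, 95% interval -0.61 to -0.32, FDR = 1.58e-05 from the same test). The inhibitory enzyme Inpp5d and the activating enzyme Plcg2 thus fell by similar amounts, with overlapping intervals, and the difference between them was not tested.

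Compared per length, the 9 genes spanned a wide range of levels. With DMSO the order of mean levels was Fcer1g (1028 CPM per kb), Fcgr4 (878), Fcgr3 (464), Fcgr1 (245), Lyn (103), Plcg2 (60.2), Syk (52.5), Inpp5d (41.6) and Fcgr2b (3.51 CPM per kb). With GSI it was Fcer1g (1118 CPM per kb), Fcgr4 (538), Fcgr3 (329), Fcgr1 (180), Lyn (69.8), Syk (47.2), Plcg2 (43.6), Inpp5d (28.5) and Fcgr2b (3.38 CPM per kb). Only Syk and Plcg2 exchanged places. In neither group did the 2 libraries of a gene overlap with those of its neighbor in the order. Over the 4 libraries, Fcer1g, Fcgr4 and Fcgr3 lay above at least 99.1% of the tested genes in CPM per kb and Fcgr2b at the 49.6th percentile.

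The cells had been primed with IFNγ, and γ-secretase cleaves Notch, whose released part acts through RBP-J. The sequence before the RefSeq starts of the members was therefore searched for 3 short motifs on both strands. These were TTCNNNGAA, letters of a γ-interferon activation site, TGGGAA, core letters bound by RBP-J, and AGGAAG, letters typical of ETS factors such as PU.1. RefSeq promoter sequences (GRCm38.p6) were matched for 8 of the 9 genes, Lyn being the exception. The 250 bases before each start were used, 10 windows in all, with more than 1 each for Fcgr3 and Syk. Some of them do not lie upstream of the gene as annotated in GENCODE. Of the 250 bases, 187 of the Fcgr2b window and all 250 of 1 Syk window are in exons. The other Syk window and those of Fcgr3 lie inside the gene, with 29 and 27 exon bases. The letters TTCNNNGAA occurred in 1 of the 8 genes, Fcgr1, and in 7.02% of all 32851 promoters. The letters TGGGAA occurred in 3 genes (Fcgr1, Inpp5d and Plcg2) and in 21.6% of all promoters. The letters AGGAAG occurred in 5 genes (Fcgr1, Fcgr3, Fcgr4, Fcer1g and Inpp5d) and in 29.5% of all promoters. These gene counts take a match in any window of a gene, whereas the percentages are of single promoters, so the units differ. In Fcgr1 the TGGGAA match, from base -109 to -104, lies inside the TTCNNNGAA match, from -109 to -101, so it is not a separate site. The windows of Fcgr1 (chr3:96293970-96294219, minus strand) and Fcgr4 (chr1:171018676-171018925, plus strand), both lower with GSI, are given with that of Fcer1g (chr1:171234350-171234599, minus strand), for which no change was called, and all matched letters are in capitals.
Fcgr1: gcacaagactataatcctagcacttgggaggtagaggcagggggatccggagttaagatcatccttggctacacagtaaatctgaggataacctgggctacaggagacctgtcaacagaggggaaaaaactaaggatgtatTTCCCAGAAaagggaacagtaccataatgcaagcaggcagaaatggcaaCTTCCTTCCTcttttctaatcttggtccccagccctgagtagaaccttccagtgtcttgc
Fcgr4: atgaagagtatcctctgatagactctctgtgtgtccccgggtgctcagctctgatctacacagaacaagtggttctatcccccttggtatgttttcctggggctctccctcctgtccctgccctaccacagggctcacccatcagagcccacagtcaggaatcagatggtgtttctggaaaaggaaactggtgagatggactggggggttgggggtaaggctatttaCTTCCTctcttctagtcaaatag
Fcer1g: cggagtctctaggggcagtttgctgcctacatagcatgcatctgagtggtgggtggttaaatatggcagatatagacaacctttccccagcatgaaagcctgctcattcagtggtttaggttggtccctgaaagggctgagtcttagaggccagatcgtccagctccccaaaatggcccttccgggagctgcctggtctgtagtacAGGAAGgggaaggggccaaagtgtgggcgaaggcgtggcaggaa

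In Fcgr1 the 2 AGGAAG matches overlap each other, from -60 to -55 and from -56 to -51, whereas Fcgr4 has 1 from -23 to -18 and Fcer1g 1 from -44 to -39. A match is a description of letters and not evidence of binding.

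The other genes of Fc receptor signaling were described from 7 lists with 99 genes, of which 88 passed the filter on low counts. Of the 88, 40 (45.5%) were lower and 12 (13.6%) higher at an FDR under 0.05, beside 21.9% and 19.0% of all tested genes, and 0 of them passed the fold change threshold as well. Their median log2 fold change was -0.16. The lists are named below by what their genes do, and single genes were chosen by size of change.

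**Figure D4:**
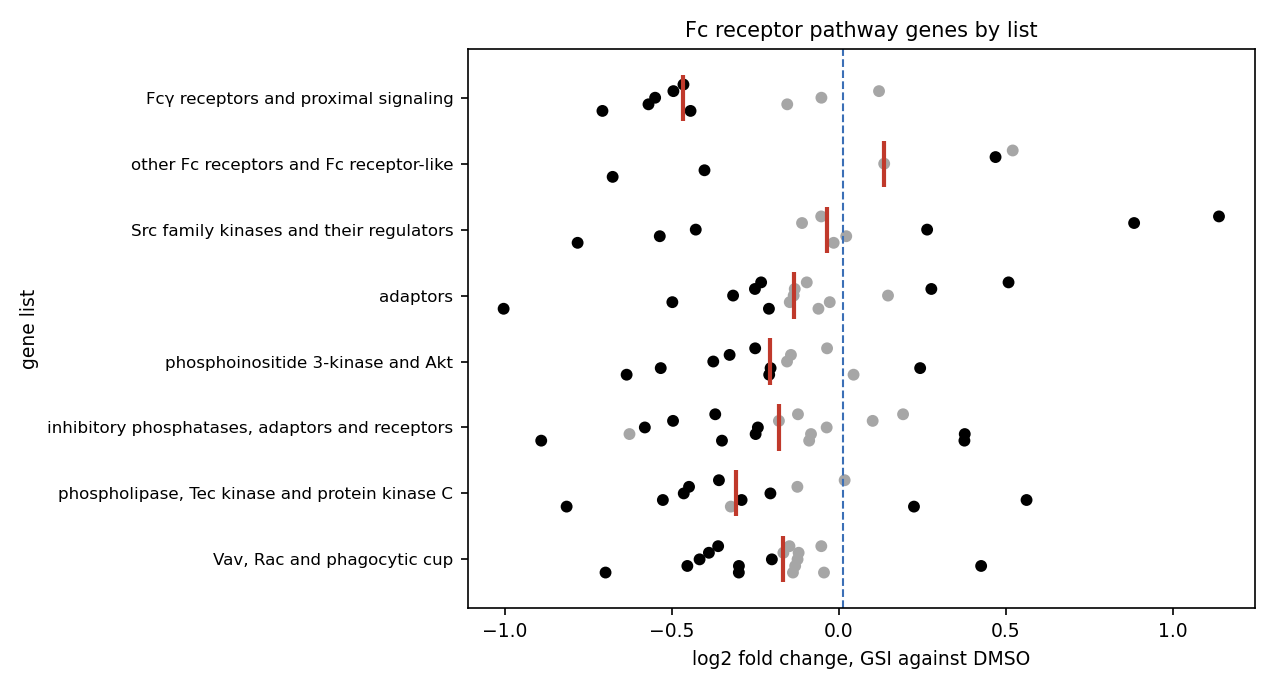
Log2 fold change, GSI against DMSO, of each tested gene on each list; black points have an FDR under 0.05, grey points do not, red bars are list medians, and the blue dashed line is the median of all 13211 tested genes (0.01). The medians of the protein kinase C list (-0.31) and of the phosphoinositide 3-kinase list (-0.21) lie lowest among the 7 pathway lists, and that of the other Fc receptors (0.14) lies to the right of the line.

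Of 13 other Fc receptors and Fc receptor-like genes, 5 were tested, of which 2 were lower and 1 higher. Fcgrt, the neonatal Fc receptor that recycles IgG, was at 64.4 and 66.1 CPM with DMSO and at 37.1 and 44.6 CPM with GSI, a log2 fold change of -0.68. Fcrls was lower as well (-0.40), and Fcrl1 was higher, from 6.00 and 5.23 CPM to 7.80 and 7.69 CPM (0.47). In edgeR's test against 1.2-fold only Fcgrt of these was called (adjusted p = 0.114 for Fcrls, with a range of 1.28e-05 to 0.114 over all alternative fits), and Fcrl1 also lost its call without DMSO replicate 2 (adjusted p = 0.0559, with a range of 4.27e-06 to 0.0645). The receptor chains for IgE, Fcer1a and Ms4a2, were at 0 counts in all 4 libraries.

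Of 10 tested Src family kinases and regulators, 3 were lower and 3 higher. Src rose from 21.8 and 27.2 CPM to 45.7 and 45.1 CPM, a log2 fold change of 0.88, and Lck rose from 1.19 and 1.02 CPM to 2.71 and 2.13 CPM (1.14). The receptor phosphatase Ptprj, which acts on Src family kinases, fell from 224 and 220 CPM to 131 and 127 CPM (-0.78). The myeloid kinase Fgr (log2 fold change -0.05, FDR = 0.717 from edgeR's test), chosen after its values were seen, was not called.

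Of 15 tested adaptors, 6 were lower and 2 higher. Gab1, a docking protein for phosphoinositide 3-kinase, fell from 5.30 and 5.32 CPM to 2.48 and 2.81 CPM, and its fitted level fell by 50.1%, while Sh2b2 fell by 0.50 on the log2 scale. Lat2, a membrane scaffold phosphorylated downstream of ITAM receptors, rose from 265 and 269 CPM to 382 and 378 CPM (0.51). Without GSI replicate 2, 5 of the 15 adaptors were called in place of 8. Of 12 phosphoinositide 3-kinase and Akt genes, 7 were lower and 1 higher, and these 8 calls became 5 without DMSO replicate 2 and 4 without GSI replicate 2. The catalytic subunits Pik3cg and Pik3cb had log2 fold changes of -0.63 and -0.38, the latter not called against 1.2-fold, and Pik3ap1, an adaptor of the kinase, fell from 442 and 446 CPM to 314 and 300.3 CPM (-0.53).

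Of 17 inhibitory phosphatases, adaptors and receptors, 7 were lower and 2 higher. Dok2, an adaptor that restrains Ras signaling, fell from 85.9 and 90.2 CPM to 46.1 and 48.9 CPM, a log2 fold change of -0.89. Cd72, an ITIM-bearing surface receptor, fell by 0.58 on the log2 scale, and Inppl1, which codes for SHIP-2, the relative of SHIP-1, fell by 0.50. Dok1 and Cd300a on the same list were higher (0.38 each). Of the 17 genes 41.2% were thus lower and 11.8% higher, beside 21.9% and 19.0% of all tested genes.

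Of 12 genes of phospholipase, Tec kinase, protein kinase C and calcium release, 7 were lower and 2 higher. Itpr1, a calcium channel opened by the messenger that Plcg2 makes, fell from 167 and 164 CPM to 89.6 and 98.5 CPM, a log2 fold change of -0.81, and Itpr2, of the same family, fell by 0.53. Prkca was higher (0.56) on 50 to 98 counts per library, with FDR = 0.0345 from edgeR's test, and lost that call with DESeq2 (adjusted p = 0.187) and when any of DMSO replicate 1, DMSO replicate 2 or GSI replicate 1 was left out (adjusted p from 0.0717 to 0.227, and from 0.0119 to 0.227 over all alternative fits). Of 17 genes of the Vav and Rac group and the phagocytic cup, 8 were lower and 1 higher. Myo1g, a membrane-linked myosin, fell from 317 and 353 CPM to 199 and 214 CPM (-0.70), Wasf2, an activator of actin branching, fell by 0.45, and Vav1, which activates Rac downstream of Syk, rose from 195 and 208 CPM to 275 and 266 CPM (0.43).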

How the data were processed

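Poly(A) RNA of IFNγ-primed, LPS/IC-activated BMMs was made into strand-specific libraries by the authors, who trimmed the reads with Trimmomatic, aligned them with STAR (2.5.0a per the submitters' processing notes) to mm10 and deposited raw HTSeq counts per gene, without normalization. The strand setting and the treatment of reads with several matches are not given in the sources used here. The methods place GSI before activation overnight, whereas some legends give a shorter time.

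Each replicate's 4 columns were added up as runs of 1 library, and agreed within about the sampling noise (chi-square per degree of freedom 1.01 to 1.03, against 14.7 and 16.6 between replicates). Counts were tested in R 4.3.3 by glmQLFit and glmQLFTest of edgeR 4.0.16 after filterByExpr and TMM, with group as the only term and Benjamini-Hochberg adjustment over 13211 genes. A standard error is the log2 fold change divided by the root of F. GENCODE M21 (GRCm38), which held 98.8% of the gene IDs, gave positions, exons and transcript sequences, and RefSeq the promoters.

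The members and lists were chosen with earlier results of these data known. Named pathway genes were up to 3 per list with the largest absolute log2 fold change among those with an FDR under 0.05, at least 1 CPM and no overlap. Alternatives were RLE, upper quartile or no factors, 2 other filters, DESeq2 1.42.0, a likelihood ratio test, a replicate block, separate runs, fits without each library in turn, and glmTreat with 1.2-fold. The scripts were tested on simulated data. Single genes and 1 marker list are not reported here.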

Additional observations from a re-analysis of the deposited data

How the results depend on the processing

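Under all 14 alternative fits Fcgr1, Fcgr3, Fcgr4, Lyn, Inpp5d and Plcg2 kept their direction and an adjusted p under 0.05, the largest being 0.0183 for Fcgr1, and Fcgr2b was called in 0. The columns of a replicate agreed within about the sampling noise. Entering all 16 as separate samples nevertheless called Fcer1g higher (0.12) and Syk lower (-0.15) as well, so that 1 member was higher. That fit left 178 genes past both thresholds, against 385 in the main fit. Its low-count filter acted on single columns, so the set of tested genes was not the same. Leaving out 1 library in turn gave log2 fold changes from -0.17 to 0.07 for Fcgr2b, reversed without DMSO replicate 1 (0.070) and without GSI replicate 1 (0.0064), and from 0.013 to 0.22 for Fcer1g, called higher without GSI replicate 2, with 0 to 1 members higher and 6 to 7 called. In these fits a lone library is assumed to vary like the other group. The test against 1.2-fold called 2446 genes in all and 22 on the pathway lists. At least 10 counts in every library left 154 genes past both thresholds. Of the 21 named pathway genes, 17 kept their call throughout and 0 reversed; Fcrl1, Fcrls, Pik3cb and Prkca lost it in at least 1 fit. The replicate numbers share only a number in the labels; the difference between replicates 1 and 2 correlated at r = 0.184 over genes between the groups, and the fit with the replicate block called 6444 genes, 389 past both thresholds and the same number of members, 6. The ratio of activating to inhibitory receptors, GSI over DMSO, lay between 0.622 and 0.752 without any 1 library, and that of Fcer1g to the activating receptors from 1.49 to 1.82. The median log2 fold change of all genes was at most 0.0503 in any fit, so scaling moved no direction of a called member.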

Other observations

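Tyrobp, the ITAM adaptor DAP12 that serves other myeloid receptors, was measured at 932 CPM with DMSO and 851 CPM with GSI, a log2 fold change of -0.13 (FDR = 0.163 from edgeR's quasi-likelihood test), and was not called, as Fcer1g was not. It was chosen after its values were seen. Among the inhibitory receptors of the fixed list, Sirpa (1452 and 1367 CPM, log2 fold change -0.09), Pirb (534 and 521 CPM, -0.04) and Lilrb4a (1210 and 1299 CPM, 0.10), also chosen after their values were seen, were not called either, while Clec12a was lower (-0.25) and Cd300a was higher, from 122 and 128 CPM to 159 and 166 CPM (0.38).

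The genes whose pattern over the 4 libraries was most like that of each receptor were found among 96 other members and tested pathway genes, as the root mean square distance between centred log2 values. They were Ptprc for Fcgr1 (0.0270), Fgr for Fcgr2b (0.0425), Plcg2 for Fcgr3 (0.0243) and Myo1g for Fcgr4 (0.0301). With only 4 libraries in 2 groups, a small distance largely reflects a similar fold change and is no evidence of shared regulation.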
